A study of Homo sapiens with 10 samples.

Results

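The ATF4 and unfolded protein response genes are a set of 44 genes chosen by name. They comprise 22 genes of the ATF4 or amino acid response, 4 stress sensors and their transcription factors, 13 chaperones and folding enzymes of the endoplasmic reticulum (ER), 3 genes of ER-associated degradation and 2 proteins of the ER membrane. Probes were matched to 43 of them by accession, SLC3A2 having no matched probe, and 42 were tested, out of 17379 genes tested in all. The other untested gene was ERN1, the sensor known as IRE1, whose probe rose well above background on 0 arrays of the miR-1225-3p group and 1 of the scrambled group. The cells of both groups were MEG-01, a line derived from a human megakaryoblastic leukemia, nucleofected with 200 nM of a double-stranded precursor RNA and collected after 24 hours. One group received the miR-1225-3p precursor and the other a scrambled control precursor, with 5 arrays of total RNA each. The source label of the scrambled samples describes no treatment, whereas their titles and the methods describe the control precursor. Cells that had not been nucleofected were not analysed here, so both groups share the electroporation and the RNA load. The transfections were run side by side as 5 experiments per group in 1 cell line, so p-values refer to the spread between these transfections.

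Cells that accumulate unfolded protein in the ER respond through the sensors PERK, IRE1 and ATF6. PERK, like the amino acid sensor GCN2, phosphorylates the initiation factor eIF2, which lowers protein synthesis while allowing the transcription factor ATF4 to be translated, and ATF4 raises genes of amino acid synthesis, amino acid import and stress signalling. IRE1, by splicing the XBP1 message, and ATF6, by being cleaved, raise the chaperones, the degradation machinery and other parts of the secretory pathway. Megakaryocytic cells carry a rich load of secretory and membrane glycoproteins, which are folded by this machinery. These are general properties of the pathways, and translation, phosphorylation, splicing and cleavage are not seen by an expression array.

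The transfected microRNA is shown because every comparison rests on it. Its mature sequence in RefSeq (GRCh38.p14, chr16:2090195-2090216, minus strand) has the seed, bases 2 to 8 from the 5′ end, in capitals.
hsa-miR-1225-3p: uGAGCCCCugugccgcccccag
Matches of this seed to the members' messages were not examined.

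The quantity given for a gene on an array is its normalized log2 signal, and the log2 fold change is the mean of the miR-1225-3p arrays minus that of the scrambled arrays. A gene was called when its adjusted p from limma, with Benjamini-Hochberg adjustment over all 17379 genes, was under 0.05. By this rule 6091 genes were called, or 35.0%, with 17.0% higher and 18.1% lower in miR-1225-3p cells. For 12.7% of genes the groups did not overlap. Spots well above background made up 41.95% to 53.85% of spots on the miR-1225-3p arrays and 43.09% to 61.18% on the scrambled arrays. The arrays lay on 2 slides, both of which held both groups. Of 12 megakaryocyte markers, ITGA2B, ITGB3, GATA1, NFE2, FLI1 and TAL1 were well above background on all 10 arrays, whereas PF4 and VWF did not pass the filter on dim probes. Of 9 markers of other cell types, MS4A1, ALB and COL1A2 did not pass it either. CD14, PECAM1 and EPCAM were well above background on all 10 arrays, and COL1A1 on 3 arrays of each group. EPCAM, an epithelial marker, rose with a log2 fold change of 0.90, and CD3E, a T cell marker that was well above background on 4 arrays in all, with 1.96. Of the 8 megakaryocyte markers tested, 0 were higher and 3 lower, namely ITGA2B, NFE2 and FLI1. The part of these shifts in the results was not tested.

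One array stood apart from its label. The library labelled miR-1225-3p replicate 5 lay among the scrambled arrays on the first principal component of all genes, at 56.74 against 48.65 to 79.87 for the scrambled arrays and -133.4 to -52.98 for miR-1225-3p replicates 1 to 4. The changes of the members called are therefore given with and without it. Without it, 9564 genes were called, which is 55.4% of those tested, and 18 of the 18 members called with it were called again in the same direction. Since it was left out for lying near the scrambled arrays, this gives no support for the calls. Leaving out any other single array kept 7 to 14 of the 18.

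Of the 42 members tested, 8 were higher, 10 were lower and 24 were not past the threshold. This makes 42.9% called, against 35.0% of all genes. The groups did not overlap for 7 members, or 4 that were higher and 3 that were lower, against 12.7% of all genes. Among members called, 2 rose and 9 fell by over 2-fold, beside 989 and 2028 of the 6091 genes called in all. The median log2 fold change of the 42 members was -0.13, beside -0.06 over all genes tested. Without miR-1225-3p replicate 5, 12 members were higher and 13 lower, where 55.4% of all genes were called. That replicate lay inside the scrambled range for 10 of the 18 members called, beside 3605 of the 6091 genes called in all. RNA was pooled within each culture, so fewer cells expressing a gene and less of its RNA per cell cannot be told apart.

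**Figure D1:**
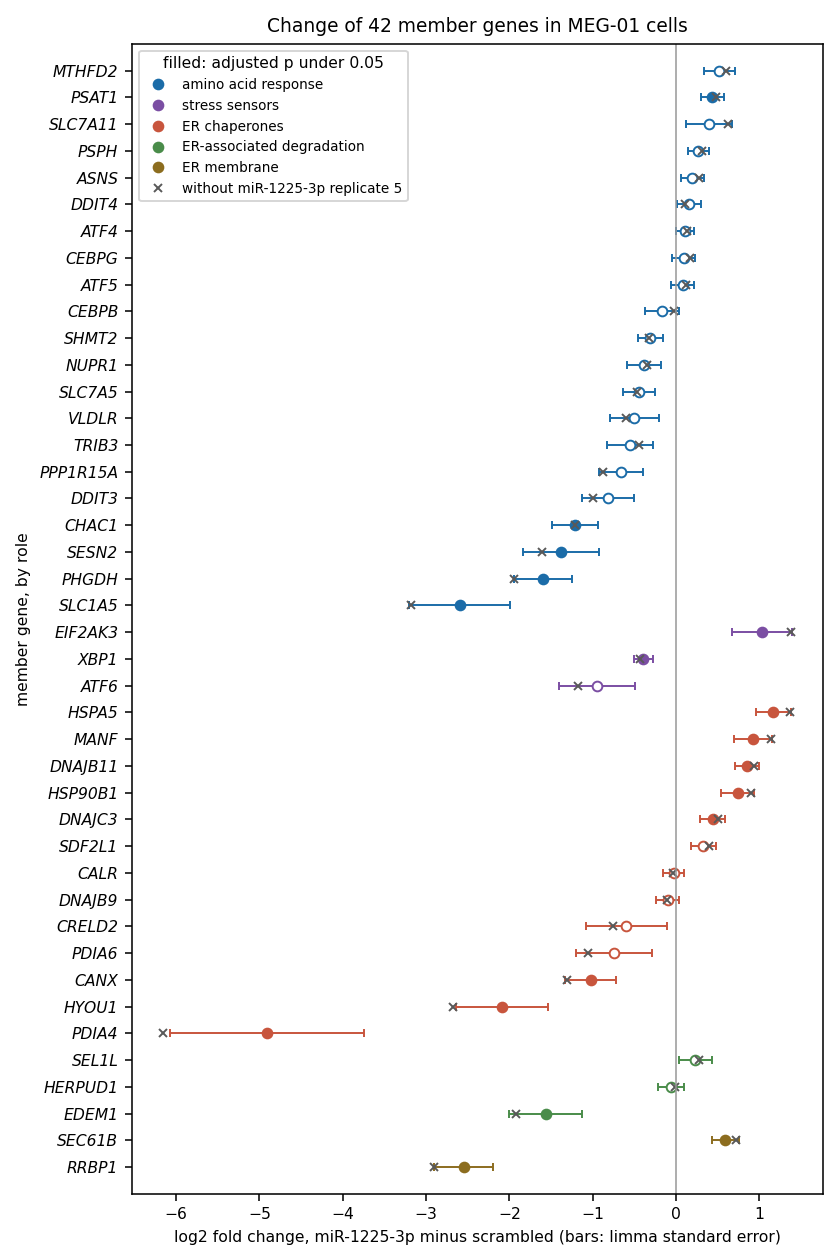
The log2 fold change of each of the 42 tested members, miR-1225-3p minus scrambled (x axis, log2 scale), with bars for the limma standard error, filled circles for adjusted p under 0.05 and crosses for the value without miR-1225-3p replicate 5. Chaperones lie on both sides of 0, from -4.91 for PDIA4 to 1.17 for HSPA5. Amino acid response genes do so too, from -2.59 for SLC1A5 to 0.52 for MTHFD2.

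The stress sensors did not move together. EIF2AK3, which encodes PERK, was higher, XBP1, the transcription factor activated by IRE1, was slightly lower, and ATF6 was not past the threshold. The signal of EIF2AK3 was 6.78, 6.91, 6.41, 6.59 and 4.91 on miR-1225-3p replicates 1 to 5 and 5.31, 5.56, 5.23, 5.57 and 4.78 on scrambled replicates 1 to 5. The first 4 miR-1225-3p arrays lay above every scrambled array, and replicate 5 lay within the scrambled range. The log2 fold change was 1.03 (standard error 0.358, limma adjusted p = 0.0467), and 1.38 without replicate 5. Starting from the median signal with a normexp background correction it was 0.44 and not past the threshold (limma adjusted p = 0.0706). The call was also lost by the methods' t-test and with the slide as a block, among others. Leaving out replicate 5 was the only single omission under which EIF2AK3 stayed past the threshold, with a limma adjusted p of up to 0.11 among the others. Within slides its log2 fold change was 1.74 on slide 1 and 0.41 on slide 2, or 0.94 on slide 2 without replicate 5.

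For XBP1 the miR-1225-3p arrays read 11.82, 11.86, 11.81, 11.79 and 11.98 and the scrambled arrays 12.19, 12.33, 12.38, 12.22 and 12.09. The groups did not overlap, replicate 5 included. The difference was -0.39 (standard error 0.112, limma adjusted p = 0.0271), and -0.43 without replicate 5. It depended on the scaling between arrays, being 0.13 with the 75th percentile of each array subtracted, a scaling that moved the median of all genes from -0.06 to 0.16. With single arrays left out it ranged from -0.43 to -0.36 and kept its call when replicate 4 or 5 of miR-1225-3p or replicate 1 or 5 of the scrambled group was omitted, but not for the other 6 arrays (limma adjusted p up to 0.0657). The deposited files do not place the probe on the transcript, so the signal cannot be assigned to the spliced or the unspliced message.

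ATF6, the sensor that is cleaved to a transcription factor, read 8.84, 7.92, 7.02, 6.46 and 8.73 with miR-1225-3p and 9.14, 9.08, 8.84, 8.64 and 8.02 with the scrambled precursor. The groups overlapped, and the miR-1225-3p arrays spread over more than 2 log2 units. The log2 fold change of -0.95 had a 95% interval of -1.97 to 0.07 (limma adjusted p = 0.122), which spans 0, and without replicate 5 it was -1.18. Within slide 2 without replicate 5 ATF6 was past the threshold, at -2.12 (limma adjusted p = 0.0167).

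Among genes of the amino acid response, 1 of 21 tested was higher, 4 were lower and 16 were not past the threshold. This is 23.8% called, against 35.0% of all genes. PSAT1 was the gene that rose, and SLC1A5, PHGDH, SESN2 and CHAC1 were those that fell. The median log2 fold change was -0.31, beside -0.06 over all genes. Without miR-1225-3p replicate 5, 4 were higher and 6 lower, where 55.4% of all genes were called. With the 75th percentile subtracted, 6 were higher and 4 lower. That is 10 of the 21 tested, beside 7147 of the 17379 genes in all, so the low share called depended on the scaling.

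ATF4 itself, the transcription factor that drives this programme, read 16.25, 16.29, 16.31, 16.32 and 16.12 on the miR-1225-3p arrays and 16.20, 16.23, 16.11, 16.17 and 16.06 on the scrambled arrays. The groups overlapped. Its log2 fold change was 0.10, with a 95% interval of -0.13 to 0.34 (limma adjusted p = 0.444). The result depended on the scaling, since ATF4 was past the threshold at 0.83 with the 75th percentile subtracted (limma adjusted p = 0.0246). DDIT3, the transcription factor CHOP that follows ATF4 in prolonged stress, read 7.10, 6.0, 5.39, 5.93 and 7.04 with miR-1225-3p and 6.87, 7.08, 7.28, 7.24 and 7.06 with the scrambled precursor. Replicates 2, 3 and 4 lay below every scrambled array, and replicates 1 and 5 lay within their range. The difference of -0.82 was not past the threshold (limma adjusted p = 0.0667), and it was -0.99 and past it without replicate 5 (limma adjusted p = 0.018), as it was without replicate 1 at -1.01 (limma adjusted p = 0.0409). The pseudokinase TRIB3, which acts downstream of CHOP, was not past the threshold either, at -0.55 (limma adjusted p = 0.131).

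The serine synthesis pathway makes serine from a glycolytic intermediate in successive steps catalysed by PHGDH, PSAT1 and PSPH. PHGDH fell, PSAT1 rose slightly and PSPH was not past the threshold. PHGDH, the first enzyme, read 10.20, 9.95, 9.78, 9.34 and 11.53 with miR-1225-3p and 11.94, 11.64, 11.80, 11.61 and 11.82 with the scrambled precursor. The groups did not overlap, although replicate 5 lay close to the scrambled arrays. The log2 fold change was -1.60 (standard error 0.344, limma adjusted p = 0.0148), a 3.02-fold fall, and -1.94 without replicate 5.

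PSAT1, the aminotransferase of the next step, read 11.10, 11.24, 11.42, 11.45 and 11.05 against 10.89, 10.99, 10.91, 10.65 and 10.64. Every miR-1225-3p array lay above every scrambled array. The rise was small, at 0.43 (standard error 0.137, limma adjusted p = 0.035), 0.48 without replicate 5 and between 0.38 and 0.48 with single arrays left out. The call held when miR-1225-3p replicate 1 or 5 was omitted but not when any of the other 8 arrays was (limma adjusted p up to 0.0811). PSPH, the phosphatase of the last step, had a log2 fold change of 0.27 (limma adjusted p = 0.118). SHMT2, which converts serine to glycine in mitochondria, had -0.31 (limma adjusted p = 0.122), and MTHFD2, the next mitochondrial folate enzyme, had 0.52 with an adjusted p of 0.0501 from limma. Without replicate 5, PSPH at 0.31 (limma adjusted p = 0.0473) and MTHFD2 at 0.60 (limma adjusted p = 0.0192) were past the threshold.

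SLC1A5, a neutral amino acid transporter that imports glutamine, had the largest fall of the amino acid response genes called. It read 7.04, 6.25, 6.10, 5.15 and 9.17 on the miR-1225-3p arrays and 9.33, 9.16, 9.50, 9.24 and 9.44 on the scrambled arrays. Replicate 5 lay within the scrambled range and the other 4 far below it. The log2 fold change was -2.59 (standard error 0.607, limma adjusted p = 0.0166), a 6.04-fold fall, and -3.18 without replicate 5. Within slide 1 it was -2.78, and within slide 2 without replicate 5 it was -3.58. Starting from the median signal with a normexp background correction the fall was smaller, at -1.72. The cystine carrier SLC7A11 had a log2 fold change of 0.39 (limma adjusted p = 0.267) and the large amino acid carrier SLC7A5 had -0.44 (limma adjusted p = 0.0892). Without replicate 5, SLC7A11 was past the threshold at 0.62 (limma adjusted p = 0.0191).

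CHAC1, which degrades glutathione, read 6.87, 7.10, 7.10, 8.0 and 7.21 with miR-1225-3p and 8.70, 9.05, 8.45, 8.47 and 7.67 with the scrambled precursor. Only miR-1225-3p replicate 4 and scrambled replicate 5 crossed, and replicate 5 of miR-1225-3p lay with its own group. Its log2 fold change was -1.21 both with and without that replicate (standard error 0.28 and limma adjusted p = 0.0163 with all arrays). The fall of CHAC1 was thus of the same size whether or not replicate 5 was kept.

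SESN2, a sestrin that restrains mTORC1, read 4.95, 5.02, 4.96, 2.81 and 5.66 against 5.54, 6.30, 6.30, 6.11 and 6.02, and on 3 of the 5 arrays of miR-1225-3p it was well above background. Replicate 4 was lowest by a wide margin. The log2 fold change was -1.38 (standard error 0.456, limma adjusted p = 0.041), and -1.61 without replicate 5. It ranged from -1.61 to -0.94 with single arrays left out and was past the threshold only when miR-1225-3p replicate 4 or 5 was the array omitted (limma adjusted p up to 0.0821). After normexp on the median signal it was -0.41.

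The remaining amino acid response genes tested were not past the threshold. They were ASNS, the asparagine synthetase, DDIT4, an inhibitor of mTORC1, VLDLR, a lipoprotein receptor, the transcription factors CEBPB, CEBPG and ATF5, the chromatin-associated stress protein NUPR1 and PPP1R15A, the subunit that directs dephosphorylation of eIF2. Their log2 fold changes lay between -0.66 for PPP1R15A and 0.20 for ASNS. Without replicate 5, PPP1R15A was past the threshold at -0.88 (limma adjusted p = 0.00379). For ASNS, a widely used reporter of ATF4 activity, the 95% interval was -0.12 to 0.51.

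**Figure D2:**
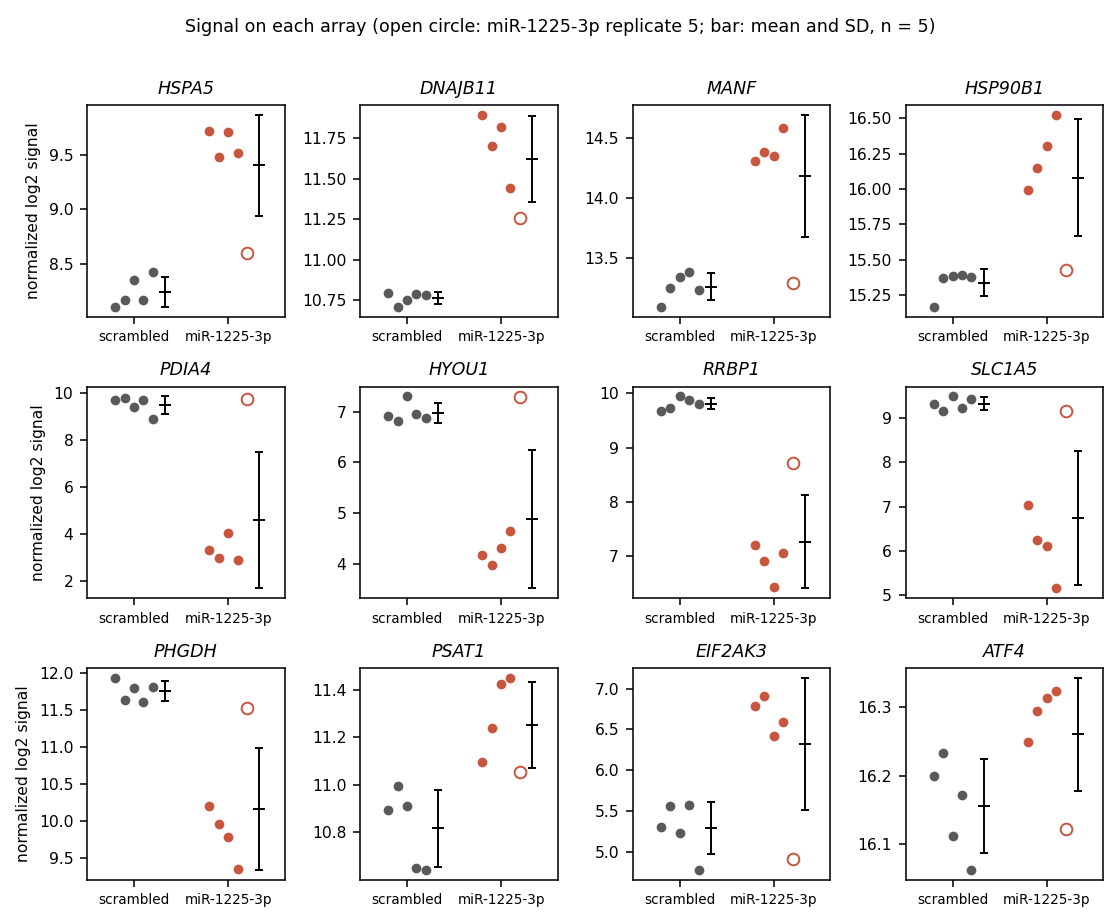
Normalized log2 signal (y axis, a separate scale for each gene) of 12 members on the 5 scrambled and 5 miR-1225-3p arrays, with points for arrays, an open circle for miR-1225-3p replicate 5 and bars for the mean and SD (n = 5). Replicate 5 lies at the scrambled level for PDIA4, HYOU1, MANF, SLC1A5 and EIF2AK3, and apart from the scrambled arrays for RRBP1 and DNAJB11.

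The ER chaperones that were called went in both directions. Of 13 tested, 5 were higher, 3 were lower and 5 were not past the threshold, so that 61.5% were called, against 35.0% of all genes. Over all genes, 17.0% were higher and 18.1% lower. HSPA5, MANF, DNAJB11, HSP90B1 and DNAJC3 rose, and PDIA4, HYOU1 and CANX fell. The median of -0.03, beside -0.06 over all genes, therefore describes no typical member, since the values ran from -4.91 to 1.17. Without miR-1225-3p replicate 5, 6 were higher and 4 lower, where 55.4% of all genes were called.

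Several of these genes carry the ER stress element in their promoters, to which the factors ATF6 and XBP1 are known to bind together with NF-Y. The promoters of a pair of chaperones that rose and a pair that fell are shown for this reason. Each window runs from 250 bases before to 50 bases after a start in RefSeq (GRCh38.p14). It is written 5′ to 3′ along the gene with the element in capitals on either strand. Where a gene had several starts, as CANX did, a window with the most matches was taken. The start was not matched to the transcript probed. HSPA5 lies at chr9:125241294-125241593 (minus strand) and HSP90B1 at chr12:103930160-103930459 (plus strand), both with the element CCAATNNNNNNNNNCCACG. CANX at chr5:179698679-179698978 (plus strand) has the same element, and HYOU1 at chr11:119057156-119057455 (minus strand) has the related form ATTGGNCCACG.
HSPA5 promoter: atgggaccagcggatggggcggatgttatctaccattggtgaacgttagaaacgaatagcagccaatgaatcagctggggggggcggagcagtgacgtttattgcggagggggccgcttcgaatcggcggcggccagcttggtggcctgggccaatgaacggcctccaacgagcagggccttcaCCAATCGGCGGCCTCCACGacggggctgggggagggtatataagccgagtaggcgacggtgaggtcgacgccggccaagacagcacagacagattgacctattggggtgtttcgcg
HSP90B1 promoter: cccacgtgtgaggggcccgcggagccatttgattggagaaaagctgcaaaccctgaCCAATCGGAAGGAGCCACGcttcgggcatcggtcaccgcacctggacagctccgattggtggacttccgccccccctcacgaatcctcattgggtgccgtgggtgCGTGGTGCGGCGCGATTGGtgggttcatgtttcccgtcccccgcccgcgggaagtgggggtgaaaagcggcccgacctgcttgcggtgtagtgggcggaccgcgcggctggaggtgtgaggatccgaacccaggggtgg
CANX promoter: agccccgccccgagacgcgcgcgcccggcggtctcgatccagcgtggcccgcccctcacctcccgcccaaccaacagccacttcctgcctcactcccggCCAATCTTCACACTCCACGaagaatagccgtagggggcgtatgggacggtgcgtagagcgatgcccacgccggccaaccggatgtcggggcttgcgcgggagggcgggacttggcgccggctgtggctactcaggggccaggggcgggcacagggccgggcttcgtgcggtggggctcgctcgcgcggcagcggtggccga
HYOU1 promoter: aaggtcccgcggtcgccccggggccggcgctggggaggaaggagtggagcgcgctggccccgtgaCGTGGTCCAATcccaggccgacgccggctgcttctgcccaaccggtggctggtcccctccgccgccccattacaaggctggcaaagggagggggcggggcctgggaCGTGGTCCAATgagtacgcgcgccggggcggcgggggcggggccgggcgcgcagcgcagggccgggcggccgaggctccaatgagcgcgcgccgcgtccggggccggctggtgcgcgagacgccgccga
Searched on both strands, the first element was in 27 of 35116 promoter windows, or 0.0769%, and in those of 7 of the 40 members with a window, namely HSPA5, HSP90B1, CANX, CALR, CRELD2, PDIA6 and XBP1. The second form was in 0.0541% of windows, and in those of HYOU1, SDF2L1 and HERPUD1. The letters of these elements do not overlap. Of these 10 members, all tested, 2 were higher, 3 were lower and 5 were not past the threshold, beside 35.0% of all genes called. The calls of HSP90B1, CANX and XBP1 among them have the limits given with each gene.

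HSPA5, the abundant chaperone BiP, had the largest rise among the members with all arrays and this normalization. EIF2AK3 rose slightly more without replicate 5, at 1.38 against 1.37, and MANF more with the 75th percentile subtracted, at 1.53 against 1.45. The signal of HSPA5 was 9.72, 9.49, 9.71, 9.53 and 8.60 with miR-1225-3p and 8.10, 8.16, 8.34, 8.16 and 8.43 with the scrambled precursor. Every miR-1225-3p array lay above every scrambled array, with replicate 5 the nearest to them. Its fold change on the log2 scale was 1.17 (standard error 0.215, limma adjusted p = 0.0136), a 2.25-fold rise, and 1.37 without replicate 5. The exact two-sided permutation test over the arrays gave p = 0.00794, the smallest that 5 arrays against 5 allow. Within slide 1 the log2 fold change was 1.32, within slide 2 it was 1.12, and its call held with any single array left out.

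DNAJB11 is a co-chaperone that works with BiP. It read 11.89, 11.70, 11.82, 11.44 and 11.26 with miR-1225-3p and 10.80, 10.71, 10.75, 10.79 and 10.78 with the scrambled precursor. Here replicate 5 lay with its own group, clear of the narrow scrambled range. Group means differed on the log2 scale by 0.85 (standard error 0.144, limma adjusted p = 0.0136), and 0.94 without replicate 5. The call held with any single array left out.

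MANF, a secreted ER protein that binds BiP, read 14.31, 14.39, 14.35, 14.58 and 13.29 against 13.10, 13.26, 13.35, 13.39 and 13.24. Replicate 5 lay inside the scrambled range and the other 4 about 1 log2 unit above it. On the log2 scale the change was 0.92 (standard error 0.228, limma adjusted p = 0.0187), and 1.14 without replicate 5. The call was lost when miR-1225-3p replicate 2 was omitted, at 0.88 (limma adjusted p = 0.0508).

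HSP90B1, the ER form of HSP90 known as GRP94, read 15.99, 16.15, 16.30, 16.52 and 15.43 with miR-1225-3p and 15.17, 15.37, 15.39, 15.39 and 15.37 with the scrambled precursor. The groups did not overlap, but replicate 5 lay just above the scrambled arrays. limma gave a log2 fold change of 0.74 (standard error 0.194, limma adjusted p = 0.0214), and 0.90 without replicate 5. A second probe of the same transcript had -0.39 (limma adjusted p = 0.105 over the kept probes), so its probes differed in direction, and with the mean of the probes HSP90B1 was not called. The call was also lost without miR-1225-3p replicate 2 or 3 (0.73 and 0.69, limma adjusted p up to 0.0553).

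DNAJC3, the co-chaperone P58IPK that also inhibits PERK, read 9.44, 9.64, 9.50, 9.73 and 9.21 against 8.95, 8.92, 9.10, 8.93 and 9.44. Scrambled replicate 5 lay at the level of the miR-1225-3p arrays. The rise of 0.44 (standard error 0.153, limma adjusted p = 0.0478) was 0.51 without replicate 5 of miR-1225-3p and lay between 0.39 and 0.53 with single arrays left out, and it kept its call only with replicate 5 of either group omitted (limma adjusted p up to 0.107).

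PDIA4, a disulfide isomerase of the ER, had the largest change of all members. It read 3.33, 2.98, 4.04, 2.90 and 9.75 on the miR-1225-3p arrays and 9.71, 9.80, 9.43, 9.71 and 8.90 on the scrambled arrays. Replicates 1 to 4 were not well above background, while replicate 5 lay among the scrambled arrays, so the group mean of 4.60 ± 2.92 (SD, n = 5) described none of the 5 arrays. The mean difference was -4.91 (standard error 1.16, limma adjusted p = 0.017), and -6.15 without replicate 5. For an estimate, each of replicates 1 to 4 was given the higher of its own signal and the lowest signal well above background there. So taken, PDIA4 was 62.1-fold lower on them than on the scrambled arrays. Signals above that level were not always well above background, as for HYOU1, so the value is not a lower bound. From the normexp-corrected median signal the fall was smaller, at -2.30.

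HYOU1, the ER chaperone GRP170 that exchanges nucleotide on BiP, read 4.17, 3.98, 4.31, 4.65 and 7.29 against 6.91, 6.81, 7.30, 6.95 and 6.86. On 2 of the 5 arrays of miR-1225-3p it was well above background, and replicate 5 again lay within the scrambled range. Its log2 fold change was -2.09 (standard error 0.554, limma adjusted p = 0.0222), and -2.67 without replicate 5. The call was lost without miR-1225-3p replicate 2 or 3 (-1.88 and -1.98, limma adjusted p up to 0.0573), and after normexp on the median signal, where it was -0.66.

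Calnexin and calreticulin are lectin chaperones that hold newly made glycoproteins, one anchored in the ER membrane and one soluble. CANX, the membrane form, read 8.49, 8.36, 8.29, 8.20 and 9.78 with miR-1225-3p and 9.32, 9.28, 9.83, 9.74 and 10.07 with the scrambled precursor. All but replicate 5 lay below the scrambled arrays. This amounted to a log2 fold change of -1.02 (standard error 0.308, limma adjusted p = 0.0309), and a second probe gave -0.89 (limma adjusted p = 0.0826 over the kept probes). The call of CANX held without miR-1225-3p replicate 5 (-1.31) or scrambled replicate 1 or 2, and was lost without any of the other 7 arrays (-0.995 to -0.91, limma adjusted p up to 0.0736). It was also lost when the 75th percentile was subtracted, at -0.71. CALR, the soluble form, had a log2 fold change of -0.03, with a 95% interval of -0.31 to 0.26 (limma adjusted p = 0.879).

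The other chaperones, none past the threshold, were PDIA6, a disulfide isomerase, at -0.75, CRELD2, an ER protein, at -0.59, DNAJB9, a BiP co-chaperone, at -0.10, and SDF2L1, part of a BiP complex, at 0.33. Without miR-1225-3p replicate 5, PDIA6 at -1.06 (limma adjusted p = 0.0449) and SDF2L1 at 0.40 (limma adjusted p = 0.0316) were past the threshold. Scrambled replicate 1 was far above the rest for CRELD2, at 12.27 against 9.50 to 10.34 on the other scrambled arrays. The difference between amino acid response genes and chaperones in the share called, 23.8% against 61.5%, was not tested, since genes on the same arrays are not independent samples. The difference of their medians, -0.28, was -0.52 with the 75th percentile subtracted and 0.05 within slide 1.

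ER-associated degradation returns misfolded proteins to the cytosol. EDEM1, the lectin that picks out misfolded glycoproteins, was the only gene called of the 3. It read 3.90, 3.40, 3.17, 2.84 and 5.14 with miR-1225-3p and 5.27, 5.19, 5.89, 5.63 and 4.28 with the scrambled precursor, and it was well above background on 1 and 4 of the arrays of these groups. Replicates 1 to 4 lay below every scrambled array. The change came to -1.56 (standard error 0.438, limma adjusted p = 0.0256), and -1.92 without replicate 5. Estimated as for PDIA4, EDEM1 was 3.44-fold lower without replicate 5, none of replicates 1 to 4 being well above background. EDEM1 kept its call when replicate 1 or 5 of miR-1225-3p or replicate 5 of the scrambled group was omitted, and lost it for the other 7 arrays (-1.57 to -1.35, limma adjusted p up to 0.0602), nor after normexp on the median signal, where it was -0.37. HERPUD1, a membrane component, had a log2 fold change of -0.06 (limma adjusted p = 0.785), and SEL1L, which anchors the ubiquitin ligase, had 0.23 (limma adjusted p = 0.357) with a second probe at -1.22 (limma adjusted p = 0.0852 over the kept probes).

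The ER membrane proteins moved apart. RRBP1, the ribosome-binding protein of the rough ER, read 7.21, 6.91, 6.43, 7.06 and 8.71 with miR-1225-3p and 9.68, 9.73, 9.95, 9.88 and 9.81 with the scrambled precursor. The groups did not overlap, and replicate 5 lay between the other miR-1225-3p arrays and the scrambled arrays. Between the groups its log2 fold change was -2.55 (standard error 0.355, limma adjusted p = 0.0127), -2.91 without replicate 5, -2.75 within slide 1 and -3.06 within slide 2 without replicate 5. SEC61B, a subunit of the translocation channel, read 13.87, 13.90, 13.86, 13.91 and 13.21 against 13.06, 13.20, 13.28, 13.25 and 13.00. Its 4 high arrays were nearly level, and replicate 5 lay in the scrambled range. The fitted difference was 0.59 (standard error 0.162, limma adjusted p = 0.0238), 0.72 without replicate 5, and the call was lost when replicate 2 or 3 of miR-1225-3p or replicate 1 of the scrambled group was omitted (0.56 to 0.57, limma adjusted p up to 0.0617).

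**Figure D3:**
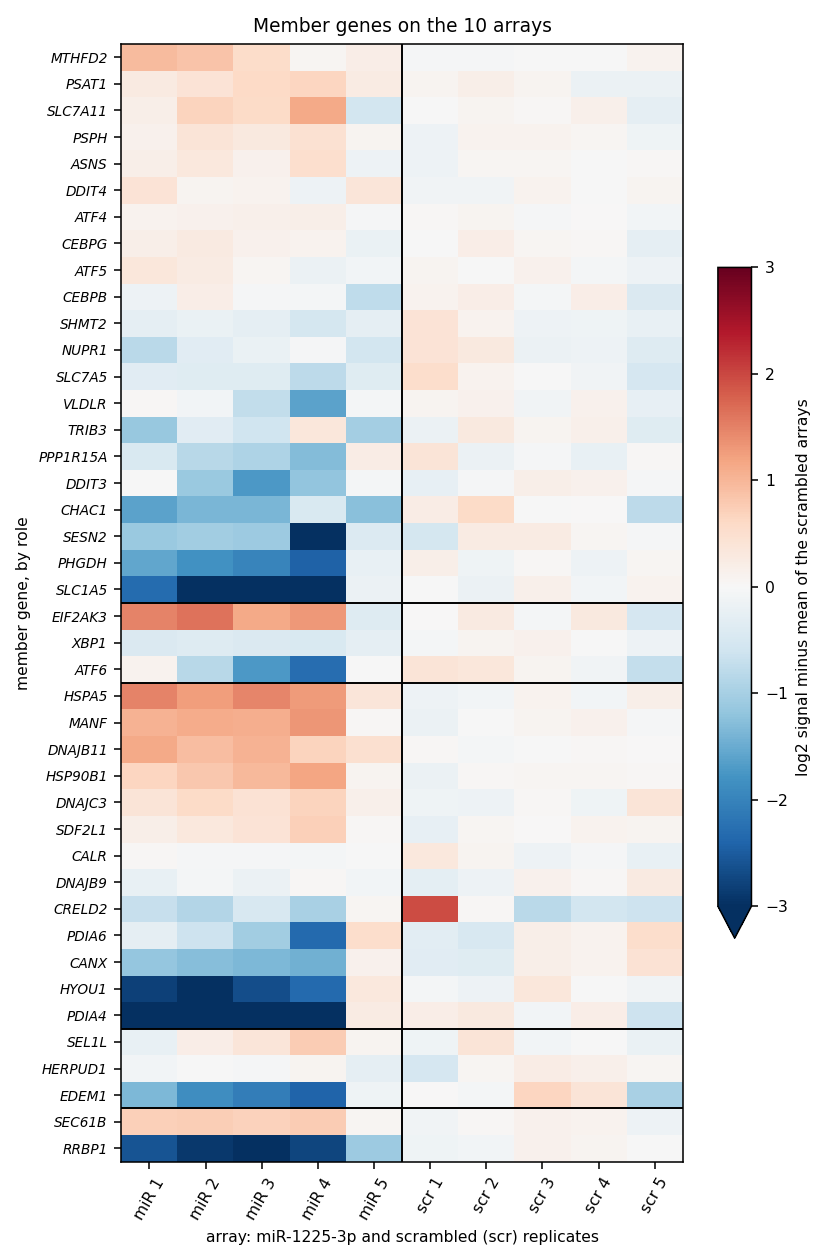
Log2 signal of the 42 tested members on each array minus the mean of the scrambled arrays (colour, log2 scale, values beyond the ends of the scale drawn in the end colours), with members in rows by role and arrays in columns. The columns of miR-1225-3p replicates 1 to 4 are alike, with PDIA4, HYOU1, SLC1A5 and RRBP1 low and HSPA5, MANF and EIF2AK3 high, whereas that of replicate 5 is close to the scrambled columns for most members.

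All 18 called members kept their sign within slide 1, within slide 2 and within slide 2 without miR-1225-3p replicate 5. Since they were called on these same arrays, this gives no support for the calls. Without normalization between arrays, 6 of the 18 were called, CHAC1, SLC1A5, PDIA4, HYOU1, EDEM1 and RRBP1, all of them lower, and none of the rises was past the threshold. With the 75th percentile subtracted, the log2 fold changes of PSAT1, HSP90B1, DNAJB11, DNAJC3, MANF and SEC61B were larger, between 0.77 and 1.53, beside the shift of all genes given above. The median processed signal was 12.7 to 29.2 on miR-1225-3p replicates 1 to 4, 40.3 on replicate 5 and 17.1 to 59.5 on the scrambled arrays, and the part of this in the results was not tested.

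The windows of the same 40 members were also searched for the C/EBP-ATF response element TGATGNAAN, to which ATF4 binds with a C/EBP partner. It was in 3.61% of all windows and in those of 5 amino acid response genes, ASNS, CEBPG, CHAC1, SLC1A5 and SLC3A2, and of HERPUD1. Of the 5 of these that were tested, HERPUD1 included, 0 were higher, 2 were lower and 3 were not past the threshold, beside 35.0% of all genes called. Both that were lower are shown, SLC1A5 at chr19:46784765-46785064 (minus strand) and CHAC1 at chr15:40953221-40953520 (plus strand). Their windows were chosen in the same way from the same build, with the element in capitals on either strand.
SLC1A5 promoter: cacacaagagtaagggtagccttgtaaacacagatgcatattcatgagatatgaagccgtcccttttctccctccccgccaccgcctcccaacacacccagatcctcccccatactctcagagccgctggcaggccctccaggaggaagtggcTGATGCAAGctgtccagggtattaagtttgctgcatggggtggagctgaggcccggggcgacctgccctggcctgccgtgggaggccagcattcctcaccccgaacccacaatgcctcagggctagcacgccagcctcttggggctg
CHAC1 promoter: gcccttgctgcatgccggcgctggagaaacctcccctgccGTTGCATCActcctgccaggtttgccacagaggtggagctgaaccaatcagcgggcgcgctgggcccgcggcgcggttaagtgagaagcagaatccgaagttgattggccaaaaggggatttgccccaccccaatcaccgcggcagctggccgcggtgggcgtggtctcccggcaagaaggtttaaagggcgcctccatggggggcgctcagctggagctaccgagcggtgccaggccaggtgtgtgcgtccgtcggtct
None of the amino acid response genes held either form of the ER stress element in its window, and a match of letters does not show that a factor was bound.

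Other genes of these pathways, 91 in 5 lists that do not hold the members, gave 86 tested, of which 7 were higher and 24 lower, or 36.0% called against 35.0% of all genes. Among eIF2 kinases, eIF2, its exchange factor eIF2B and other genes of eIF2 control, 4 of 12 were higher and 4 lower, or 66.7% called. EIF2S1, the phosphorylated subunit of eIF2, rose by a log2 fold change of 0.99 (limma adjusted p = 0.0148), while the eIF2B subunit EIF2B2 had -1.18 (limma adjusted p = 0.0157) and EIF2AK4, the amino acid sensor GCN2, had -1.51 (limma adjusted p = 0.0205). EIF2AK4 was dim, being well above background on 2 of the 5 arrays of miR-1225-3p, and had -0.42 after normexp on the median signal. Among other ATF4 targets, 0 of 18 were higher and 3 lower, or 16.7% called, these being PCK2, a mitochondrial enzyme of gluconeogenesis, SLC38A2, a neutral amino acid transporter, and KLHL24, an adaptor of a ubiquitin ligase. PCK2 had -1.70 on its chosen probe and 0.46 on a second one that was well above background on all 10 arrays, with -0.62 for their mean. SLC38A2 had a log2 fold change of -0.94 (limma adjusted p = 0.0138) and its groups did not overlap on the chosen probe. A second probe of the same transcript had -0.47 and was not past the threshold (limma adjusted p = 0.135 over the kept probes).

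Of 19 other ER folding genes, 1 was higher and 6 lower, or 36.8% called. SIL1, another nucleotide exchange factor of BiP, was the one that rose, with a log2 fold change of 0.86 (limma adjusted p = 0.0216). PPIB, a prolyl isomerase, had -1.78 (limma adjusted p = 0.0168) and CALU, a calcium-binding protein, had -1.74 (limma adjusted p = 0.0259). Of 15 other genes of ER-associated degradation, 1 was higher and 6 lower, or 46.7% called, with HERPUD2 at -1.91, MAN1B1, a mannosidase that trims glycoproteins for degradation, at -1.71 and DERL3, a derlin, at -1.61. On 2 of the 5 arrays of miR-1225-3p HERPUD2 was well above background, and it had -0.74 after normexp on the median signal. The calls of MAN1B1 and DERL3 were lost in 18 and 16 of 25 alternatives, among them the methods' t-test and the slide as a block.

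Of 22 other translocon and rough ER genes, 1 was higher and 5 lower, or 27.3% called, which is below the 35.0% of all genes. The 3 with the largest change were subunits of the oligosaccharyltransferase, which attaches glycans to proteins entering the ER. STT3A, a catalytic subunit, had a log2 fold change of -5.0 (limma adjusted p = 0.0142), RPN1 had -4.75 (limma adjusted p = 0.0175) and RPN2 had -1.21 (limma adjusted p = 0.0207). In the miR-1225-3p group STT3A was well above background on 1 of 5 arrays and RPN1 on 2 of 5, so that both values rest on signals that were not well above background, as for PDIA4. Estimated as for PDIA4, STT3A was 61.3-fold lower without replicate 5. After normexp on the median signal STT3A had -2.52 and RPN1 had -2.76. RPN2 had -1.48 without replicate 5. Of the other subunits in the list, DAD1 was lower at -0.36 (limma adjusted p = 0.0362), while the other catalytic subunit STT3B at -0.06 (limma adjusted p = 0.705) and DDOST at -0.79 (limma adjusted p = 0.0612) were not past the threshold.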

How the data were processed

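Total RNA of MEG-01 cells was hybridized in a single Cy3 channel to 10 arrays, 5 per group, and groups were taken from the sample titles. The authors deposited scanner files, written per the file headers by Agilent Feature Extraction 10.7.3.1, whose processed signal is a background-subtracted intensity. The methods name another version of this software. The authors also deposited a table of normalized log2 values, used as an alternative. Its correlation with the values used here, after centring each probe, was 0.981 to 0.998 per array.

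The log2 of these signals was normalized between arrays by cyclic loess (limma 3.58.1, R 4.3.3, 3 iterations), as the methods state. Outlier spots and 4259 control spots were dropped, and repeated spots averaged. A filter kept the 20648 of 42405 probes that were well above background on 3 or more arrays of a group. Symbols came from RefSeq accessions (GRCh38.p14) for 24907 probes. The other probes had no symbol and went by the systematic name in the scanner output. Of the 17379 genes tested, 11993 had a symbol, and the shares given for all genes include the rest. Each gene stands for its brightest kept probe, and 2784 genes had several. The comparison used lmFit and eBayes of limma, with p-values adjusted by Benjamini-Hochberg over 17379 genes and a threshold of 0.05, and the fit was tested on simulated data. The number of arrays limits the precision.

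Members and lists were chosen with earlier results of these data known. Values on every array are given for ATF4, DDIT3, XBP1, ATF6, EIF2AK3, HSPA5, the 8 largest falls and 8 largest rises among called members, and members whose kept probes differ in direction. CANX was added after its values were seen. In each other list, up to 3 called genes with the largest change are named. Some cell type markers are not reported here. Alternatives covered the normalization, background correction, dim probes, choice of probe, test, blocks, slides and each array left out. Normexp was run on the median signal with an offset of 50, the mean signal not being used here. Promoters and the microRNA were copied from RefSeq tables, which were read for exact letters with scripts in Python 3.11.15. They were not matched for SHMT2, PSPH, SLC7A11 and NUPR1.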

Additional observations from a re-analysis of the deposited data

Results flagged for a closer look

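Single arrays lay apart from the rest of their group, by the ratio of their gap to the group's range, in 16 of 114 groups of 5 arrays examined, where chance alone flags about 1 in 20, or 5.7. Replicate 5 of miR-1225-3p held 8 of them, and there the normalized log2 signal was 9.78 for CANX, 4.91 for EIF2AK3, 8.60 for HSPA5, 7.29 for HYOU1, 13.29 for MANF, 9.75 for PDIA4, 13.21 for SEC61B and 9.20 for STT3A. In each case the array lay on the side of the scrambled group. On miR-1225-3p replicate 4, SESN2 at 2.81, SHMT2 at 12.98 and SLC7A5 at 8.14 were low. On scrambled replicate 1, HERPUD1 at 10.64, HSP90B1 at 15.17 and SDF2L1 at 12.58 were low. HYOU1 at 7.30 on scrambled replicate 3 and MTHFD2 at 12.59 on scrambled replicate 5 were high.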

How the results depend on the processing

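Of the 18 members called, 17 kept their sign with the 75th percentile of each array subtracted, and 18 did so with quantile normalization, with none, with the authors' values and with normexp. By the methods' t-test, 8284 genes and 25 members passed unadjusted and 4677 genes and 15 members after Benjamini-Hochberg adjustment. The counts of genes, members, amino acid response genes, chaperones and other pathway genes called were 6091, 18, 5, 8 and 31, and without normalization between arrays they were 1266, 6, 2, 2 and 4. Without a filter on dim probes, 3411 of 35267 genes, 11 of 43 members and 3 amino acid response genes were called. With the 75th percentile subtracted, 7147 genes and 10 amino acid response genes were called. The amino acid response median was 0.17 with the 75th percentile subtracted and 0.060 within slide 1, an analysis chosen after seeing the data. The chaperone median was 0.69 with the 75th percentile subtracted, 0.23 with quantile normalization, 0.27 with none and 0.33 over probes well above background on all 10 arrays. The difference of the medians was -0.52 with the 75th percentile subtracted and with none, -0.57 over the latter probes and 0.048 within slide 1. XBP1 was 0.13 with the 75th percentile subtracted, and PCK2 was 0.46 over probes well above background on all 10 arrays, where another probe represents it.

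With 1 array left out, 2151 to 9564 genes, 7 to 25 members, 3 to 10 amino acid response genes, 3 to 10 chaperones and 15 to 53 other pathway genes were called. The lowest count of members came without miR-1225-3p replicate 2 and the highest without replicate 5. The chaperone median lay between -0.065 and 0.045. Within slide 2, also chosen after seeing the data, limma called 0 genes, members, amino acid response genes, chaperones and other pathway genes, with 1220 genes and 4 members at an unadjusted p under 0.05, whereas 5605 genes were called there once miR-1225-3p replicate 5 was left out too. Within slide 1, 4500 were called.

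The deviations of same-numbered arrays from their group means correlated at -0.40 to 0.07. Arrays with different numbers were not compared, so these values cannot decide whether the replicate numbers pair the samples. A replicate block in limma left 0 genes called over all genes and in every list, against 7474 genes and 20 members at an unadjusted p under 0.05. The causes of these shifts were not tested.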

Other observations

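Some genes of the wider pathway had kept probes that moved in opposite directions, and they are named after their values were seen. PDIA3, a disulfide isomerase of glycoproteins, had probes with log2 fold changes of -0.79 (adjusted p = 0.0482 from limma over the kept probes) and 1.03 (adjusted p = 0.0148 from limma over the kept probes), both listed for the same transcript and well above background on all 10 arrays. DNAJC10, an ER reductase, had -0.83 (adjusted p = 0.0308 from limma over the kept probes) and 0.68 (adjusted p = 0.0279 from limma over the kept probes). EIF2B3, a subunit of eIF2B, had 0.93 and 1.12, both past the threshold, and -0.68, which was not. EIF2S2, a subunit of eIF2, had 0.73, past the threshold, and -0.53 on a dimmer probe, which was not. The probes of P4HB, another disulfide isomerase, differed in size and not in direction. They had -0.17 and -1.51, of which the second was past the threshold. No cause of these differences was tested, and the deposited files do not give the position of the probes.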
